A study of Homo sapiens with 52 samples.

Results

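WT161, a compound that the sample labels assign to the deacetylase HDAC6, was given to fusion-positive rhabdomyosarcoma (FP-RMS) cells at 2 doses, and gene expression was read by RNA-seq after 6 h. The 2 treated libraries, 1 at 10 µM and 1 at 1 µM, were set against the 4 solvent (DMSO) libraries of the same compound screen, so that 6 of the 52 libraries of the series were compared directly. Of the 27043 genes in the tables, 14025 had at least a TPM of 1 (a level scaled for gene length and library size) in at least 2 of these 6 libraries and were tested. FP-RMS is a childhood tumour of cells that resemble skeletal muscle precursors, and the labels give a cell line with the PAX3-FOXO1 fusion gene for all 6. The controls were 2 libraries at 0.1% DMSO and 2 at 0.2%. The titles say RH41 while the cell-line label says RH4, and which is right was not tested.

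HDAC6 is a zinc-dependent deacetylase that resides mostly in the cytoplasm, where it removes acetyl groups from α-tubulin, from the chaperone HSP90 and from the actin-binding protein cortactin. The class I enzymes HDAC1, HDAC2 and HDAC3 act on histones in the nucleus instead. In FP-RMS a small set of core regulatory transcription factors, among them the myogenic factors MYOD1 and MYOG, is expressed from large enhancers that the fusion protein also occupies. Protein acetylation was not analysed here.

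The libraries had the markers of the labelled cell type. Of 9 FP-RMS markers, 8 were at a TPM of 1 or more in each DMSO library, and CDH3 was below, at 0.28 to 0.389. Of 11 markers of blood, endothelial, epithelial and liver cells only CD14 reached that level in DMSO, and PTPRC and KRT5 were at 0 in all 6 libraries. The depth, worked out from the TPM values, was 15222434 reads at 10 µM and 11110084 at 1 µM, and 16771990 to 22400901 in DMSO. Each dose is a single library, so the test assumes that it varies like the other compounds of the screen. The p-values measure the spread between the 2 doses of each of 17 other compounds and between the DMSO concentrations. Both doses of a compound were on 1 flow cell, so differences between flow cells are left out of this spread. The study's methods speak of replicate experiments and of quadruplicate DMSO controls, and the labels do not say whether these were separate cultures. No DMSO library shares the flow cell of the WT161 libraries, and flow cell and treatment cannot be told apart in a comparison with DMSO. Results were therefore also computed against a same flow cell reference, the 7 compounds on that flow cell directed at histone methylation, at the same dose. In that fit the spread between these 7 compounds at a dose took the place of the spread between their 2 doses. The 2 DMSO libraries of 1 concentration differed by 1.00 times the counting noise over 10378 genes once flow cell was allowed for, less than could be told from sampling, and were counted as 1 sample.

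Promoter sequences of genes on which the results turn are shown first, from RefSeq (GRCh38.p14), as the 250 bases before the annotated start, 5′ to 3′ on the gene's strand. The table held 3 of the 6 core regulatory factors, MYOG, MYCN and PAX3, which fell together at 10 µM, and BMP8B and TNFRSF19 are among the genes that rose most. Capitals mark E-boxes (CANNTG, of which CAGCTG is the form that myogenic factors prefer), CCAAT boxes (CCAAT) and GC boxes (GGGCGG), searched on both strands.
MYOG: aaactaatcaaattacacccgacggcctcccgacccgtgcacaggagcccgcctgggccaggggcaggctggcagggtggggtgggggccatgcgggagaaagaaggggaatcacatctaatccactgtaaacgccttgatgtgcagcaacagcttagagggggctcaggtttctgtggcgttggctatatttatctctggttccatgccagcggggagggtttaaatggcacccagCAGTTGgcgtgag
MYCN: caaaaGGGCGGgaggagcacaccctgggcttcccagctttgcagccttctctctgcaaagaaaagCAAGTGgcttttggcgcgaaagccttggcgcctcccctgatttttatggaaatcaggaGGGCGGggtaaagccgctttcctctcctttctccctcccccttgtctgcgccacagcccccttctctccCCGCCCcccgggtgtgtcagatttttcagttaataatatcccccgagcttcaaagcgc
PAX3: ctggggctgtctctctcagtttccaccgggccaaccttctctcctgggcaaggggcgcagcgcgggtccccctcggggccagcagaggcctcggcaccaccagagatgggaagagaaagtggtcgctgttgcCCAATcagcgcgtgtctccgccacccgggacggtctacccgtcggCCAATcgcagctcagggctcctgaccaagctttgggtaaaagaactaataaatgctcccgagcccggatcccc
BMP8B: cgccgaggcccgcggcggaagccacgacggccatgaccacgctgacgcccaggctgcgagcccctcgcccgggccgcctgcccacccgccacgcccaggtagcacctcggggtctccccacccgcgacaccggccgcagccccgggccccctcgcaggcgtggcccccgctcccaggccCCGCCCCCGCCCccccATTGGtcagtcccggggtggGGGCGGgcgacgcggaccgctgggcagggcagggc
TNFRSF19: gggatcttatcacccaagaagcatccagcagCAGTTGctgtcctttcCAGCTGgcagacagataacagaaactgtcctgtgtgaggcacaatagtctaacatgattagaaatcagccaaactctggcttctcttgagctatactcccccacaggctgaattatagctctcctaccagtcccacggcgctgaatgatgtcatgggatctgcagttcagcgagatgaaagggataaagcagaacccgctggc
The windows are chr1:203086013-203086262 (minus strand), chr2:15940300-15940549 (plus), chr2:222298999-222299248 (minus), chr1:39788866-39789115 (minus) and chr13:23570162-23570411 (plus). MYOG and MYCN each held 1 E-box, and TNFRSF19 held 2, of which 1 was CAGCTG. MYCN and BMP8B each held 3 GC boxes, PAX3 held 2 CCAAT boxes and BMP8B 1. Over all 27305 promoters of the table, 62.2% held CANNTG, 13.8% CAGCTG, 33% CCAAT and 42.3% GGGCGG in the same window. A match describes the letters only.

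At 10 µM WT161 changed many genes in both directions, and at 1 µM far fewer. Genes were called where limma's Benjamini-Hochberg adjusted p was below 0.05 and the difference reached 2-fold. On this rule 1520 genes were higher and 1391 lower than in DMSO at 10 µM, 10.8% and 9.92% of the genes tested and 20.8% in all. With the same flow cell reference 1560 (11.1%) were higher and 1424 (10.2%) lower. Of the genes called against DMSO, 1244 of the higher (81.8%) and 1116 of the lower (80.2%) were called again in that direction. Both comparisons use the same WT161 library, so such shares are a description and no test. At 1 µM 311 genes were higher and 358 lower, 2.22% and 2.55% of those tested and 4.77% in all, of which 231 (74.3%) and 241 (67.3%) were called again with the same flow cell reference, where 2.53% of all genes were called higher and 2.54% lower. After median-ratio scaling the split at 1 µM was 229 higher and 446 lower. The median difference over all tested genes was 0.01 at 10 µM and 0.04 at 1 µM (log2). Of the tested genes, 194 passed the expression filter through the WT161 libraries alone, and 112 of these were called higher at 10 µM, while 364 passed through DMSO alone, and 61 of these were called lower.

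**Figure D1:**
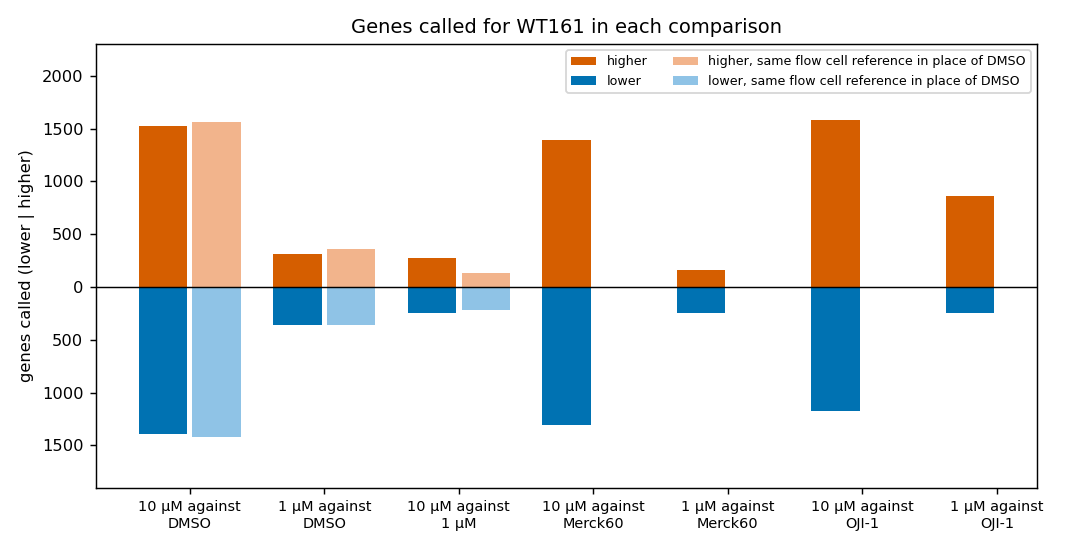
Number of genes called for WT161 in each comparison, higher above the zero line and lower below it (y axis, number of genes; x axis, comparison), with paler bars where the same flow cell reference took the place of DMSO. The 10 µM comparison with DMSO gave 1520 higher and 1391 lower genes and the 1 µM comparison 311 and 358.

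HDAC6 (chrX:48659784-48683392, hg19) was at a TPM of 23.2 at 10 µM and 24.2 at 1 µM, against 32.2, 29.6, 30.9 and 30.3 in the DMSO libraries. Both treated libraries lay below all 4 controls and below the 27.3 to 43.9 of the 14 same flow cell reference libraries. The low level was not particular to WT161, since OJI-1 at 1 µM, another HDAC-directed compound on that flow cell, was at 23.9. The difference of -0.39 ± 0.18 (log2, SE) from DMSO at 10 µM did not pass the test (limma adjusted p = 0.0821, 95% interval -0.76 to -0.02), nor did that of -0.33 at 1 µM (adjusted p = 0.217). With the same flow cell reference the 10 µM difference was -0.58, which had a limma adjusted p below 0.05 but fell short of 2-fold.

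All 6 core regulatory transcription factors fell at 10 µM, beside 9.92% of all tested genes called lower. At 1 µM none was called by limma in the fit reported or by voom on the recovered reads. At that dose 3 of 6 had an unadjusted p under 0.05. MYOG at 1 µM, at -1.18, was called where the spread came from DMSO and the compounds directed at histone methylation. It was also called with the 4 DMSO libraries entered separately. These factors were chosen with earlier results of these libraries known, so their direction is not independent evidence. MYOD1 (chr11:17741110-17743678, hg19), the master regulator of the muscle lineage, was at a TPM of 106 at 10 µM, 372 at 1 µM, and 640, 648, 647 and 641 in DMSO. MYOG (chr1:203052257-203055166), which acts after MYOD1 in muscle differentiation, was at 70.8, 254, and 587, 575, 579 and 572. For both genes the 10 µM library lay below the 1 µM library and the 1 µM library below every control. The same flow cell reference libraries ran from 221 to 592 for MYOD1, also below every control, and from 382 to 690 for MYOG. The 1 µM library thus lay within that range for MYOD1 and below it for MYOG. Against that reference the 1 µM differences were -0.21 for MYOD1 and -1.01 for MYOG, neither called. The falls at 10 µM were -2.59 ± 0.33, adjusted p = 3.12e-06 for MYOD1 and -3.01 ± 0.49, adjusted p = 5.56e-05 for MYOG.

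FOXF1 (chr16:86544133-86548070), a forkhead factor, had the largest fall of the 6, to 10.1 from 107, 104, 115 and 112 in DMSO (-3.31 ± 0.36, adjusted p = 5.71e-07), and was at 78 at 1 µM. MYCN (chr2:16080560-16087129), a MYC family oncogene, was at 14.5 and 42.4 against 56.2, 57.5, 53.3 and 53.4 (-1.86 ± 0.37, adjusted p = 0.000436 at 10 µM). PAX3 (chr2:223064606-223163715), which supplies the DNA-binding part of the fusion, was at 17.7 and 38.9 against 43.1, 43.9, 38.6 and 39.4 (-1.17 ± 0.30, adjusted p = 0.00374). At 1 µM PAX3 thus lay within the control range and MYCN and FOXF1 below it. In the same flow cell reference libraries FOXF1 ran from 73.9 to 175, which includes its 1 µM value, and MYCN from 48.1 to 66.6. A gene-level value cannot separate the fusion transcript from PAX3 itself. SOX8 (chr16:1031808-1036979), a SOX family factor, was at 287 and 485 against 680, 707, 664 and 701 (-1.26 ± 0.16, adjusted p = 3.56e-06). Its difference from the same flow cell reference was -0.91, which had a limma adjusted p below 0.05 but fell short of 2-fold. The other 5 were called lower against that reference too. In bulk libraries fewer cells of a type and less RNA per cell cannot be told apart.

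The core regulatory score, the mean difference in log2(TPM + 1) over the 6 genes, was -2.20 at 10 µM and -0.57 at 1 µM, and lay between -0.02 and 0.02 in the DMSO libraries. In the 14 same flow cell reference libraries it ran from -0.50 to -0.01 with a median of -0.23. The 10 µM score was well outside this range and the 1 µM score just below its lowest value. Taken against that reference the scores were -2.02 and -0.29.

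**Figure D2:**
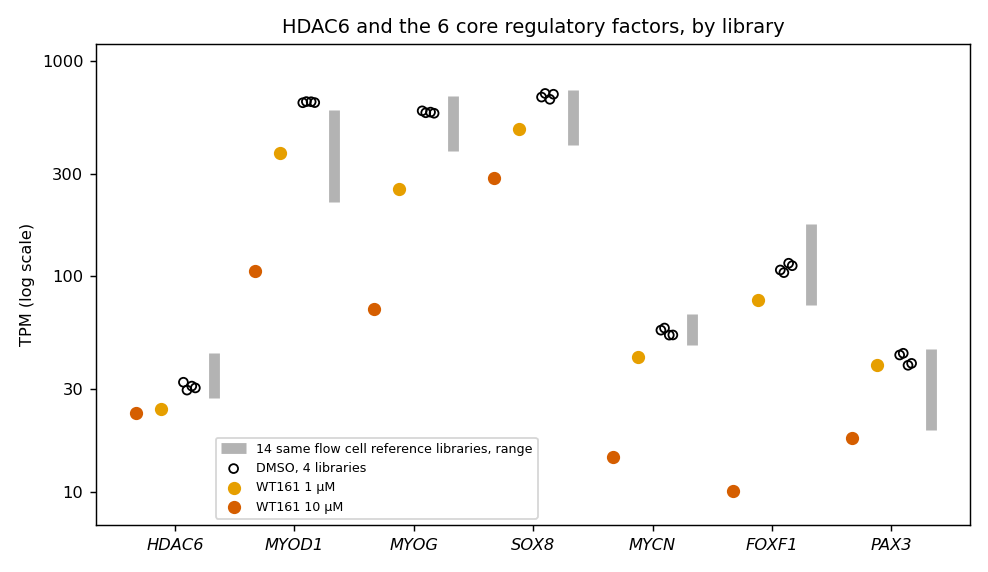
TPM on a log axis (y) of HDAC6 and the 6 core regulatory factors (x), with 1 point per library for WT161 and DMSO and a grey bar from the lowest to the highest of the 14 same flow cell reference libraries. MYOD1 stood at 640 to 648 in DMSO, 372 at 1 µM and 106 at 10 µM, and the 10 µM point of each core factor lies below its grey bar.

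Of 13 tested muscle regulatory factors and co-factors, 6 fell at 10 µM and none rose, beside 9.92% of all tested genes called lower, with a median of -0.77 beside 0.01. At that dose 6 of them were called lower than in Merck60 and 2 lower than in OJI-1. None was called at 1 µM by limma or voom, where 1 of 13 had an unadjusted p under 0.05. TCF12, an E-protein partner of the myogenic factors, was at 149 at 10 µM and 284 at 1 µM against 343, 365, 335 and 345 in DMSO (-1.22 ± 0.35, adjusted p = 0.00735). PAX7, a factor of muscle stem cells, was at 2.22 and 5.14 against 7.23 to 8.69 (-1.46 ± 0.45, adjusted p = 0.0133). EYA2 and EYA4, transcriptional co-activators of muscle development, fell by 1.25 and 1.40 on the log2 scale.

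Of 9 genes of the muscle acetylcholine receptor and of myoblast fusion, 5 fell at 10 µM and 2 at 1 µM, with medians of -1.11 and -0.93, where 9.92% and 2.55% of all tested genes were called lower. CHRNA1, the α subunit of the receptor, was at 274 and 322 against 746, 749, 723 and 731. Both doses lay well below every control, with adjusted p = 5.21e-05 at 10 µM and 0.00154 at 1 µM, while the difference between the doses, -0.23, did not pass (adjusted p = 0.646). CAV3, the muscle caveolin, was at 26.6 and 67.8 against 124 to 137 (-2.25 ± 0.45, adjusted p = 0.000463). CHRNG, the fetal receptor subunit, fell by 1.17. RAPSN, which clusters the receptor, fell by 1.86 against DMSO but was not called with the same flow cell reference, at -1.09.

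Of 20 tested sarcomere genes 2 fell at 10 µM, about the 9.92% of all tested genes called lower, with a list median of -0.15. ACTC1, cardiac α-actin, was at 176 and 351 against 589, 585, 596 and 600 (-1.74 ± 0.31, adjusted p = 0.000157). TNNI2, a fast troponin, fell by 1.28 and was not called with the same flow cell reference, at -0.85. Of 18 tested PAX3-FOXO1 target genes, 5 fell and 1 rose at 10 µM (9.92% and 10.8% of all tested genes), with a median of -0.57, and 3 were lower at 10 than at 1 µM. TFAP2B, a transcription factor used as a marker of FP-RMS, was at 3.41 at 10 µM and 28.9 at 1 µM against 50.1, 51.2, 46.7 and 48 (-3.50 ± 0.65, adjusted p = 0.000226). FGF8, a growth factor, was at 16.7 and 102 against 168 to 203 (-3.37 ± 0.73, adjusted p = 0.000907). In both genes the 10 µM library lay lowest and the 1 µM library between it and the controls. PIPOX, an oxidase of peroxisomes, and SKP2, a ubiquitin ligase subunit, fell by 2.73 and 1.62.

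Among 12 tested genes for HDAC6 substrates and partners, 2 rose at 10 µM and none fell, a share not far from the 10.8% of all genes called higher. SIRT2, another α-tubulin deacetylase, was at a TPM of 243 at 10 µM and 173 at 1 µM against 85.8, 88.4, 84 and 82.5 in DMSO. Both doses lay above every control and above the 72.5 to 112 of the same flow cell reference, with differences of 1.5 ± 0.13, adjusted p = 5.21e-08 and 1.02 ± 0.13, adjusted p = 5.19e-05. The 1 µM call sat at the 2-fold limit and was lost with the same flow cell reference, at 0.84, and after median-ratio scaling, at 0.95. PRDX2, a peroxiredoxin that HDAC6 deacetylates, was at 23.6 and 5.8 against 6.45, 4.39, 3.81 and 4.46 (2.11 ± 0.26, adjusted p = 2.38e-06), so the 1 µM library lay within the controls and the 10 µM library above them.

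Of 13 tested tubulin genes 3 were higher and 2 lower at 10 µM, beside 10.8% and 9.92% of all tested genes. With the same flow cell reference 4 were higher and none lower. TUBB3, a neuronal β-tubulin, was at 132 and 65.8 against 29.1 to 31.7 (2.09 ± 0.51, adjusted p = 0.00253). TUBB2B was at 272 and 139 against 69.4 to 79.4 (1.85 ± 0.28, adjusted p = 2.29e-05), and TUBB2A rose by 1.98. These 2 genes are nearly identical and reads may have been divided between them, so their separate values are uncertain. TUBB6 fell by 1.02 against DMSO and was not called with the same flow cell reference, at -0.41.

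None of 18 tested heat shock and co-chaperone genes was called against DMSO at either dose by limma or by voom, although 11 at 10 µM and 7 at 1 µM had an unadjusted p under 0.05. With the same flow cell reference CRYAB was called lower at 10 µM (-1.19) and BAG3 higher at 1 µM (1.07), both named after their values were seen. HSPA8, the constitutive HSP70, was at 3110 at 10 µM and 2330 at 1 µM against 2300, 2310, 2310 and 2320, with a 95% interval of the 10 µM difference of -0.15 to 1.00. HSP90AA1, an HSP90 gene, was at 2180 and 1870 against 1700, 1780, 1760 and 1820, a difference of 0.31 with an interval of 0.10 to 0.51, below 2-fold.

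Of 10 tested deacetylase genes 1 was called lower at 10 µM, about the 9.92% of all tested genes called lower. This was HDAC7, a class IIa member, at 19.8 at 10 µM and 64.8 at 1 µM against 133, 129, 125 and 123 in DMSO (-2.62 ± 0.28, adjusted p = 4.39e-07). The 10 µM library lay lowest and the 1 µM library between it and the controls, and the dose difference of -1.66 was called (adjusted p = 0.00365). Of 12 tested histone acetyltransferase genes, 6 fell at 10 µM and 3 at 1 µM, none rose, and the medians were -1.05 and -0.53, where 9.92% and 2.55% of all tested genes were called lower. CREBBP was at 29.6 and 47.7 against 96 to 99.3 (-1.68 ± 0.48, adjusted p = 0.00779), and its close relative EP300 at 19.8 and 40.5 against 57 to 60.2 (-1.52 ± 0.30, adjusted p = 0.000401). KAT6B was at 3.91 and 4.57 against 13.2 to 13.7 and was called at both doses, at -1.55 and -1.36. KAT5, the TIP60 enzyme, fell by 1.37 and 1.07.

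Of 22 genes of the class I HDAC complexes 5 fell at 10 µM and none rose, beside 9.92% of all tested genes called lower. MBD3, a subunit of the NuRD complex, was at 32.8 and 42.4 against 141, 151, 130 and 136, and fell at 10 µM (-2.05 ± 0.19, adjusted p = 7.8e-08) and at 1 µM (-1.69 ± 0.19, adjusted p = 1.4e-05). MTA2, another NuRD subunit, fell at 10 µM, to 91.5 from 203 to 213, and was at 195 at 1 µM. None of 7 BET and P-TEFb genes was called by limma against DMSO, with 5 at an unadjusted p under 0.05 and 1 called by voom at 10 µM. With the same flow cell reference HEXIM1 was called higher (1.43) and CCNT2 lower (-1.03) at 10 µM, both named after their values were seen. Of 11 linker and polyadenylated histone genes, 1 rose and 1 fell at each dose. Of all tested genes 10.8% rose and 9.92% fell at 10 µM, and 2.22% and 2.55% at 1 µM. H1F0 (chr22:38201114-38203443, hg19), the linker histone H1.0 that accumulates in non-dividing cells, was at 1620 at 10 µM and 1240 at 1 µM against 438, 444, 453 and 440. Both doses lay above every control and above the 438 to 619 of the same flow cell reference, with differences of 1.87 ± 0.25, adjusted p = 7.34e-06 and 1.48 ± 0.25, adjusted p = 0.000546. The step between the doses, 0.38, did not pass (adjusted p = 0.469). H2AFY2, a macroH2A gene, was at 7.8 and 30.3 against 84 to 91.7 and fell at both doses.

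**Figure D3:**
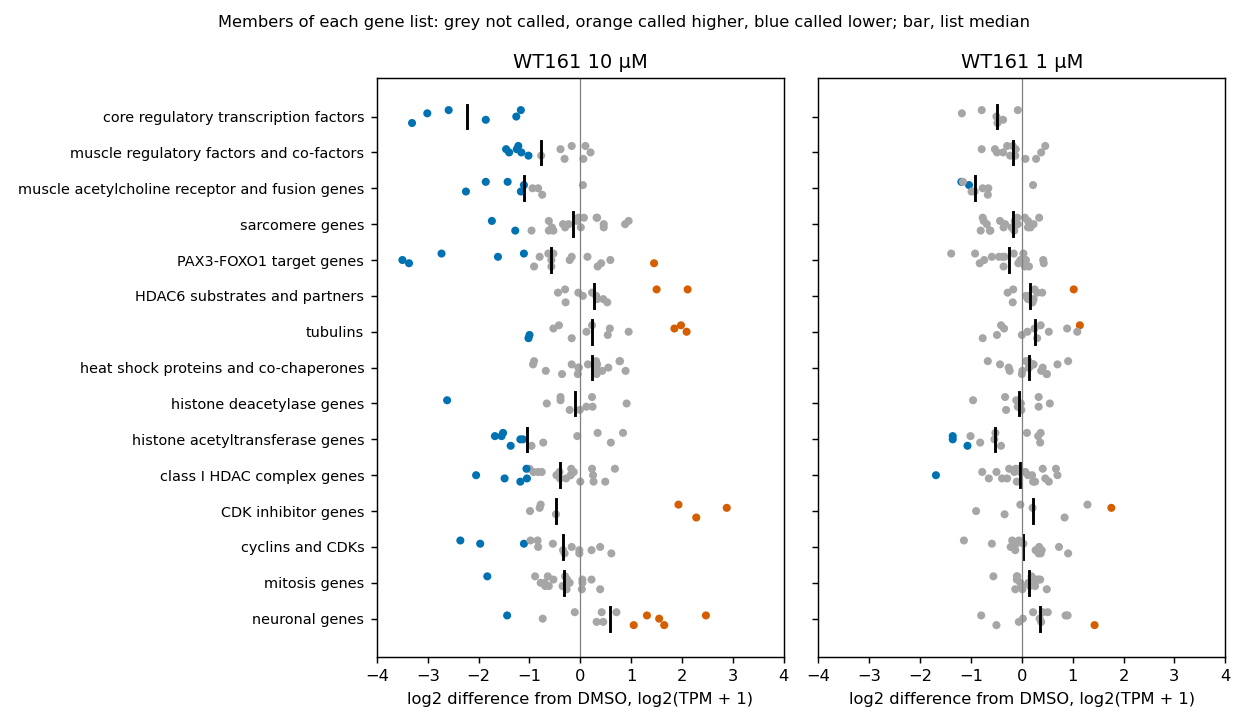
Log2 difference from DMSO on the log2(TPM + 1) scale (x axis) of the tested members of gene lists (y axis), at 10 µM and at 1 µM, with called genes in colour and a bar at each list's median. The 6 core regulatory factors are all called lower at 10 µM and none at 1 µM, while none of 18 heat shock genes is called against DMSO at either dose.

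Among cell-cycle genes, 3 of 7 CDK inhibitors rose at 10 µM, beside 10.8% of all tested genes, while the list median was -0.48. With the same flow cell reference 2 were called higher and 1 lower. CDKN2D was at 56.5 and 25.5 against 5.88 to 7.48 (2.88 ± 0.59, adjusted p = 0.000568), and CDKN2B at 9.87 and 3.02 against 1.11 to 1.38 (2.28 ± 0.40, adjusted p = 0.000117). CDKN1A, which encodes p21, was at 104 and 66.6 against 24.9 to 29.2 (1.93 ± 0.61, adjusted p = 0.0149), but it ran from 28.2 to 164 in the same flow cell reference libraries and was not called against them. The share of all tested genes called lower, 9.92%, stands beside the cyclin, mitosis and replication counts that follow. Of 15 cyclin and CDK genes CCND1, CDK6 and CCND2 fell, by 2.36, 1.97 and 1.11. PLK1, a mitotic kinase, was the one of 18 mitosis genes called, at 60.8 and 148 against 223, 224, 220 and 211 (-1.83 ± 0.17, adjusted p = 6.76e-08), and TOP2A was at 656 and 698 against 620 to 651. Of 20 replication genes TYMS, MCM7 and MCM5 fell, and CDC6, a licensing factor, rose to 373 from 145 to 153 (1.32 ± 0.18, adjusted p = 8.4e-06). MCM5 was not called with the same flow cell reference, at -0.59.

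By the naming rule, the genes with the largest rises at 10 µM were BAIAP3, DNAAF3, BMP8B, PPM1J, TNFRSF19, REEP6, HRH3, STC1, FBXL16 and PMEL, and those with the largest falls DBX1, KCTD15, SMAD1, NNMT, ATOH8, IL1RAPL2, CCDC154, TFAP2B, IGF2-AS and ZNF668. All 20 were called with the same flow cell reference as well, but from the same 10 µM library, so this is a description and no test. BMP8B (chr1:40223903-40254533, hg19), a ligand of the bone morphogenetic protein (BMP) family whose reads may be shared with its close copy BMP8A, was at 85.1 at 10 µM, 21.6 at 1 µM and 4.85, 4.79, 3.91 and 5.2 in DMSO. This was a 15.2-fold rise at 10 µM on the log2(TPM + 1) scale (3.93 ± 0.32, adjusted p = 1.88e-08), with the 1 µM library between the higher dose and the controls. SMAD1 (chr4:146402951-146480325), which carries BMP signals to the nucleus, went the other way, at 5.68 and 33.2 against 95.4, 90.5, 84.3 and 79.5 (-3.72 ± 0.34, adjusted p = 7.8e-08). ID3, a helix-loop-helix inhibitor, fell to 177 from 500 to 552 and was at 445 at 1 µM (-1.57 ± 0.12, adjusted p = 7.46e-09), while its relative ID2 rose to 81.3 from 15.1 to 19.

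TNFRSF19 (chr13:24144509-24250244, hg19), a receptor of the TNF receptor superfamily, was at 89.6 and 28.5 against 6.54, 6.08, 5.63 and 5.76 (3.70 ± 0.36, adjusted p = 1.58e-07). KCTD15 (chr19:34287751-34306666, hg19), a BTB-domain protein, was at 3.3 and 18.4 against 60.4, 64, 58.5 and 62.6 (-3.86 ± 0.31, adjusted p = 1.96e-08). In both genes the 1 µM library lay between the 10 µM library and the controls. PPM1J, a protein phosphatase, was at 26.9 and 11.1 against 0.762 to 1.01, and PMEL, a structural protein of melanosomes, at 49.8 and 14 against 2.8 to 4.05. BAIAP3, at 30.9 at 10 µM against 0.417 to 0.553 in DMSO, passed the expression filter through WT161 alone, as did HRH3 and FBXL16. Among the falls, NNMT, a nicotinamide methyltransferase, was at 1.13 and 9.86 against 23.5 to 27.1, and DBX1, a homeobox factor, at 9.01 and 124 against 180 to 188. ATOH8, a bHLH factor, was at 10.8 and 86.1 against 136 to 142. IGF2-AS is an antisense gene, and its reads cannot be told from those of its partner where the counting did not use strand.

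**Figure D4:**
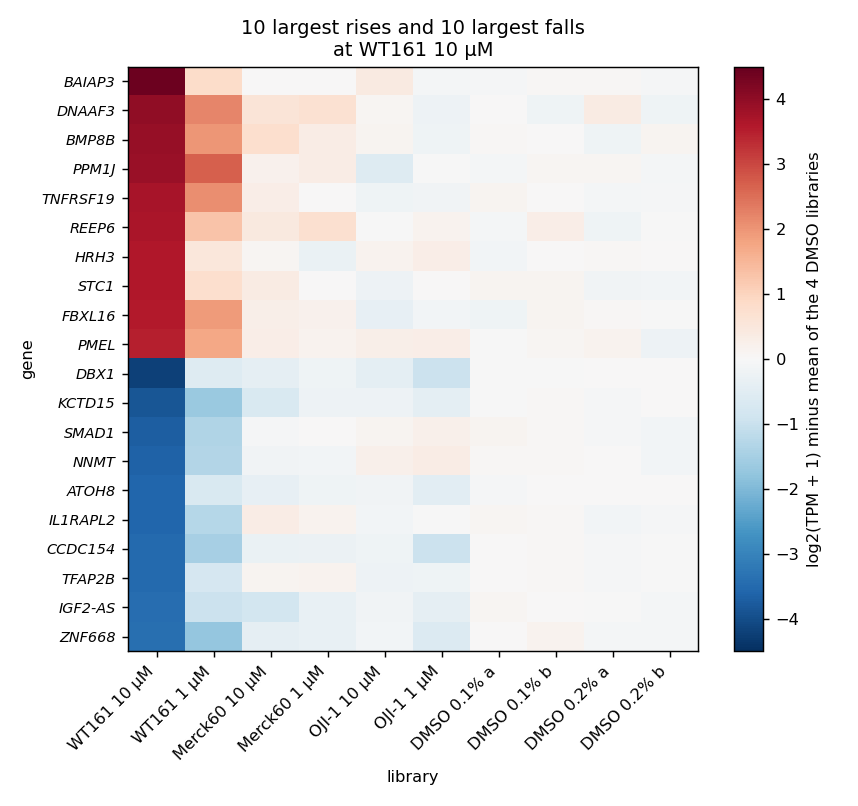
Heat map of log2(TPM + 1) minus the mean of the DMSO libraries (colour) for the 10 genes with the largest rises and the 10 with the largest falls at WT161 10 µM (vertical axis), in the WT161, Merck60, OJI-1 and DMSO libraries (horizontal axis). BMP8B was at 85.1 TPM at WT161 10 µM and 21.6 at 1 µM, and at 8.58 and 5.12 in Merck60 and OJI-1 at 10 µM.

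At 1 µM the largest rises by the same rule were in HES7, PPM1J, CORO1A, DNAAF3, EFNA3 and NPAS1. CORO1A, an actin-binding coronin best known from blood cells, was at 92.6 at 1 µM and 106 at 10 µM against 18.4, 18.1, 18.1 and 17.3 in DMSO, and EFNA3, an ephrin ligand, at 51.2 and 73.5 against 11, 9.46, 11.2 and 10.9. HES7, a repressor of the segmentation clock, was at 11.6 and 9.67 against 0.145 to 0.634, and passed the expression filter through WT161 alone. In these 3 genes both doses lay far above every control, and the dose differences of 0.19 (95% interval -0.80 to 1.17), 0.51 (-0.39 to 1.41) and -0.24 (-1.57 to 1.08) were not called. The largest falls were in SNHG25, RABEP2, TREM2, ATP5E, SEMA3B-AS1 and MED16. RABEP2, a Rab effector, was at 2.97 and 4.16 against 23.8, 25.9, 27.4 and 25.9 (-2.75 ± 0.27, adjusted p = 5.1e-06 at 1 µM). TREM2, a receptor of myeloid cells, was at 1.66 and 1.53 against 11.1 to 13.8, and MED16, a Mediator subunit, at 19.6 and 23 against 88.8 to 95.2. SNHG25 was listed at 0 at 1 µM against 5.49 to 11, which rests on 0 reads against 4, 6, 8 and 5. It was at 6.44 at 10 µM, within the controls, and ran from 0 to 12.5 in the same flow cell reference libraries. SEMA3B-AS1, an antisense gene whose reads may be its partner's, was at 0.742 at 1 µM against 5.41 to 10.6. This rests on 1 read against 22, 20, 14 and 15. ATP5E, a subunit of mitochondrial ATP synthase, was at 68 at 1 µM against 204, 544, 200 and 538, so that its DMSO libraries divided by flow cell, and its difference from the same flow cell reference was -0.42 at 1 µM and 0.08 at 10 µM, neither called.

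Of the 311 genes higher at 1 µM, 261 (83.9%) were also called higher at 10 µM, where they made up 17.2% of the higher calls. Of the 358 lower at 1 µM, 268 (74.9%) were lower at 10 µM, 19.3% of the lower calls there, and 0 genes were called in opposite directions. The comparisons share their DMSO libraries, so these shares are a description and no test. The dose difference itself, between 2 libraries of 1 flow cell, was called for 523 genes, 3.73% of those tested, with 273 higher at 10 µM (1.95%) and 250 lower (1.78%). After median-ratio scaling the split was 339 and 200. Taken as a difference of differences from the same flow cell reference it was 134 and 219, with 114 (41.8%) of the 273 and 164 (65.6%) of the 250 called again. With each dose first set against DMSO of its own concentration, which adds the error of 1 DMSO value per dose, 31 genes were called, 6 higher and 25 lower.

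The largest positive dose differences were in BAIAP3, ALDOC, CRISPLD2, HRH3, STC1 and SELPLG. ALDOC, the brain form of aldolase, was at 40.6 at 10 µM and 3.19 at 1 µM against 3.46, 2.83, 2.4 and 2.88 in DMSO (3.31 ± 0.51, adjusted p = 0.000629). CRISPLD2, a secreted protein, was at 48.2 and 4.7 against 5.02, 3.94, 4.41 and 4.52 (3.11 ± 0.55, adjusted p = 0.00189). In both genes the 1 µM library lay within the control range and the 10 µM library far above it. The largest negative differences were in DBX1, PRDM12, ATOH8, FOXF1, TFAP2B and C10orf71, of which PRDM12, a regulator of sensory neurons, was at 16.3 and 145 against 173 to 184 (-3.08 ± 0.53, adjusted p = 0.00155). With the same flow cell reference the dose differences of DBX1 (adjusted p = 0.0513), C10orf71 (0.0973) and SELPLG (0.0825) were not called. Of the core factors MYOD1 (-1.80, adjusted p = 0.00647), MYCN (-1.49, adjusted p = 0.0394) and FOXF1 (-2.83, adjusted p = 0.000356) were called lower at 10 than at 1 µM, and MYOG (-1.83, adjusted p = 0.0544) was not. With DMSO matched by concentration FOXF1 was still called, and MYOD1 and MYCN were not, although the MYOD1 difference stayed at -1.80. With the same flow cell reference MYCN was not called either, at -1.48, while PAX3 was called, at -1.31. The MYOG difference of -1.83 was called where the tested genes had a mean TPM of 5 or more. It was also called with the spread from DMSO and the compounds directed at histone methylation, and with the 4 DMSO libraries entered separately.

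WT161 was also compared with the other HDAC-directed compounds on its flow cell at matched dose and time, in 4 pairings with no DMSO library. The labels assign Merck60 to HDAC1/2 and OJI-1 to HDAC8. At 10 µM WT161 had 1394 genes higher (9.94%) and 1303 lower (9.29%) than Merck60, 19.2% of those tested in all, and 1581 higher (11.3%) and 1175 lower (8.38%) than OJI-1, 19.7% in all. The core regulatory score at that dose was -0.21 for Merck60 and -0.21 for OJI-1, beside -2.20 for WT161. MYOD1 was at 507 in Merck60 and 558 in OJI-1 and at 106 in WT161, with differences of -2.24 ± 0.38, adjusted p = 0.00014 and -2.38 ± 0.38, adjusted p = 7.04e-05. MYOG, MYCN and FOXF1 were called lower in WT161 in both pairings too. PAX3 was called lower than in Merck60 (-1.49, adjusted p = 0.00262) and not called against OJI-1 (-0.81, 95% interval -1.54 to -0.09). SOX8 was called against OJI-1 (-1.05) and not against Merck60 (-0.72, interval -1.10 to -0.33).

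At 1 µM WT161 had 162 genes higher (1.16%) and 243 lower (1.73%) than Merck60, 2.89% in all, and 864 higher (6.16%) and 247 lower (1.76%) than OJI-1, 7.92% in all. In the OJI-1 pairing the median over all tested genes was 0.16 (log2), and after median-ratio scaling the split was 530 and 433. In the Merck60 pairing it was 138 and 296. The core regulatory score was -0.21 for Merck60 and -0.48 for OJI-1, beside -0.57 for WT161. MYOD1 differed from Merck60 by -0.45 (95% interval -1.23 to 0.33) and from OJI-1 by -0.20 (-0.98 to 0.58). MYOG differed by -1.07 (-2.24 to 0.10) and -0.95 (-2.13 to 0.22), so a 2-fold difference lies within these intervals. PAX3 was called higher in WT161 than in OJI-1 (1.10, adjusted p = 0.0329), the OJI-1 library being at 17.6. H1F0 was at 500 in Merck60, 489 in OJI-1 and 1240 in WT161, and was called higher in WT161 in both pairings (adjusted p = 0.00997 and 0.00297).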

How the data were processed

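Extracted RNA was poly-A selected and read as paired ends. By the paper's methods, reads were aligned to hg19 with STAR and expression was computed with RSEM on a UCSC reference. The authors deposited TPM values per gene, 1 table per library. The submitters' processing notes also name edgeR and GRCh37, with no role given. Which tool gave the deposited TPM values was not tested. Groups came from the sample labels, and the members and gene lists were chosen with earlier results of these data known. Reads per gene were recovered from the TPM values (23645 of 23645 genes whole within 0.01 reads), which gives the depth. log2(TPM + 1) was fitted with limma 3.58.1 in R 4.3.3 over the 44 screen samples as 42 columns, with 17 compounds as groups of 2 doses (18 residual degrees of freedom), since WT161 has 1 library per dose. p-values were two-sided and adjusted by Benjamini-Hochberg over 14025 genes. Fold changes on this scale understate those of low genes. Tables were handled with Python 3.11.15, numpy 2.4.6 and pandas 2.3.3. Of the tested genes 10048 had a RefSeq promoter by symbol, under the share needed to compare sets, so no motif comparison was made.

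Named were HDAC6 and the core factors, the 10 called genes with the largest rise and the 10 with the largest fall at 10 µM, and the 6 each way at 1 µM and for the dose difference, among genes reaching a TPM of 10. From each list up to 4 called members were named, or the most expressed in DMSO where fewer than 2 were called. Small RNA and unnamed loci were left out of the rankings, and some genes are not reported here. The 10 µM comparison was also run on simulated data over 14025 genes, with the changed genes drawn from the more expressed ones. Of 100 genes changed 2-fold 54 had a limma adjusted p below 0.05, and of 100 changed 4-fold 92, with 9 unchanged genes. The 2-fold threshold of the calls was not applied there. Each gene had the same spread in all simulated libraries, WT161 included, and no flow cell shift, so the simulation tests neither. The median difference recovered for the genes changed 2-fold was 0.99 (log2), so fewer of them would have been called. Alternatives were another pseudocount, scaling, filters, voom, other references and leaving out each DMSO library.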

Additional observations from a re-analysis of the deposited data

Results flagged for a closer look

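In each of the 121 named genes the 4 DMSO libraries were checked for 1 library far from the others, and 5 had one. Chance alone gives about 1 in 20 groups. EFNA3 was at a TPM of 9.46 in DMSO 0.1% replicate 2 and 10.9 to 11.2 in the others. MYC was at 69.7 in the same library and 62.4 to 62.9 in the others. In DMSO 0.1% replicate 1 TUBB2A was at 18.2 (others 14.8 to 15.2), CREBBP at 99.3 (96 to 96.5) and KIF5C at 21.1 (23 to 23.2).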

How the results depend on the processing

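Of 15 settings tried, most left the counts of called genes within 1.5 times. With no fold threshold 5761 genes were called at 10 µM, 2071 at 1 µM, 927 for the dose difference, 4592 and 885 against Merck60 at 10 and 1 µM, and 4708 and 2430 against OJI-1. With only the WT161 and DMSO samples 1028 were called at 1 µM and 1296 for the dose difference, from 1 residual degree of freedom. With DMSO matched by concentration 416 were called at 1 µM and 31 for the dose difference. Leaving out 1 DMSO library gave 2893 to 2941 genes at 10 µM, 666 to 687 at 1 µM and 515 to 517 for the dose difference, and core scores of -2.20 and -0.57. The 10 µM score was -2.24 with a pseudocount of 0.1, -2.17 after scaling and -2.02 with the same flow cell reference, and the 1 µM score was -0.63 after scaling and -0.29 with that reference. PAX3 at 1 µM (0.16) and ATP5E at 10 µM (0.08) reversed with that reference. Over 2854 checks of single named differences, 2717 kept their direction and side of the threshold, 123 lost a call (52 of them with matched DMSO and 30 with the same flow cell reference), 12 gained one and 2 reversed. Leaving out DMSO 0.1% replicate 1 ended the 1 µM calls of REEP6 (1.17) and CDKN2D (1.74), 0.1% replicate 2 those of TUBB2A at 1 µM (1.08) and MVK at 10 µM (1.06), 0.2% replicate 1 those of SNHG25 (-2.78) and CDKN2D (1.71) at 1 µM and of BCL2L1 (-1.0) and MVK (1.01) at 10 µM, and 0.2% replicate 2 that of CD14 at 10 µM (1.47). Where no construction is named, the cause was not tested. No paired analysis was possible because the WT161 libraries carry no replicate number.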

Other observations

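The counts of the other gene lists at 10 µM stand beside 10.8% of all tested genes called higher and 9.92% called lower. In the MYC and MAX network, MYC itself was at a TPM of 18.7 at 10 µM and 40.4 at 1 µM against 62.4 to 69.7 in DMSO (-1.73 ± 0.26, limma adjusted p = 2.12e-05), while its antagonists MXD1 and MXI1 rose, MXI1 also at 1 µM (1.36, adjusted p = 0.00494). Of 15 genes of ATF4 and the unfolded protein response, 2 rose and 2 fell. HSPA5, the chaperone BiP, was at 2590 and 1360 against 911 to 935 (1.49 ± 0.26, adjusted p = 0.000125), DDIT4 rose by 2.52, and ATF5 and TRIB3 fell by 1.71 and 1.64. Of 12 neuronal genes 5 rose and 1 fell, led by ENO2, neuronal enolase, at 21.8 and 6.73 against 2.51 to 3.62 (2.47 ± 0.32, adjusted p = 4.74e-06). KIF5C, a neuronal kinesin, was at 73 and 62.4 against 21.1 to 23.2 and rose at both doses.

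Of 11 BCL2 family genes 2 rose and 2 fell at 10 µM, near the 10.8% and 9.92% of all tested genes. The death-promoting BCL2L11 (BIM) and PMAIP1 (NOXA) rose by 1.70 and 1.75, BID fell by 1.55, and BCL2L1 fell by 1.04 but was not called with the same flow cell reference. Of 11 p53 target genes 4 rose and 2 fell, beside the same 10.8% and 9.92%, among them BBC3 (PUMA), which rose by 2.19, and TP53I3, which fell by 1.92. BBC3 was at 20.6 at 10 µM, within the 1.17 to 29.4 of the same flow cell reference libraries, though it was called higher against them (1.76). Of 17 cholesterol genes MVK and SREBF1 rose against DMSO, with a list median of 0.42. MVK was not called with the same flow cell reference, at 0.26. Against that reference 1 gene of the list was called higher and 2 lower, with a median of -0.62, beside 11.1% and 10.2% of all tested genes. SREBF1 was at 85.1 at 10 µM, 28.3 at 1 µM and 30.4 to 36.9 in DMSO. Of 16 immediate early genes FOS and FOSB were called higher and JUN lower against DMSO, FOSB having passed the expression filter through WT161 alone, and none of the 3 was called with the same flow cell reference. IFIT1, an interferon-induced gene, rose by 1.18 against DMSO and was not called with that reference, at 0.75. None of 4 metallothionein and zinc response genes was called by limma or voom, with 1 at an unadjusted p under 0.05 at 10 µM. CD14, the one tested marker of other cell types, was at 6.08 at 10 µM against 1.09 to 1.94 in DMSO. ALB, a liver marker that did not pass the expression filter, was at 1.83 at 10 µM against 0.203 to 0.436. The part of other cells in the results was not tested.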
